A study of Mus musculus with 5 samples.

Results

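A group of 6 genes of the Fc receptor system were followed in CD11b-positive brain cells: the activating IgG receptors Fcgr1, Fcgr3 and Fcgr4, the common gamma chain Fcer1g, the inhibitory IgG receptor Fcgr2b and the neonatal Fc receptor Fcgrt. They were chosen by gene symbol from the authors' count table, where 6 of 6 were found among 56748 genes, and 6 of 6 passed the low-count filter that kept 17724 genes. The libraries came from 5 mice aged 7 months. All 5 carried 5xFAD, a set of transgenes with familial Alzheimer mutations that leads to amyloid plaques, and 2 carried it alone (replicates 1 and 3). The other 3 mice (5xFAD/Cd5l tg/wt, replicates 1, 2 and 3) had in addition a mouse CD5L transgene, driven by the promoter of human PDGF-B, which is often used for expression in neurons. They are called Cd5l-transgenic here. The sources used here do not state the sex, the number of founder lines or how the CD11b-positive cells were isolated, and wild-type mice were not analysed here. CD5L is a secreted protein of macrophages, and the comparison asks how Fc receptor genes of brain myeloid cells differ when it is made from a transgene.

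IgG receptors bind the constant part of antibodies and let myeloid cells take up antibody-coated targets, among them antibody-bound amyloid. The activating receptors signal through the common gamma chain, whose phosphorylated tyrosine motif recruits the kinase SYK, while the inhibitory receptor recruits the phosphatase SHIP through a tyrosine motif of its own. The neonatal Fc receptor works differently: it pairs with beta-2-microglobulin, binds IgG in acidic endosomes and returns it to the cell surface, and it is well known from endothelium.

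The libraries held between 30798377 and 34794617 counts. The 12 microglial identity markers were all tested and summed to 27270 to 29330 CPM (the count relative to the library total, scaled between libraries by TMM factors), and Itgam, which encodes CD11b itself, lay between 305.5 and 363.4 CPM, so markers of the labelled cells were abundant in each library. Cd5l had 45 and 9 counts in 5xFAD against 6438 to 10680 counts in the Cd5l-transgenic libraries. The libraries were not equal in other respects. Plaque-associated microglial genes (14 genes, among them Itgax, Spp1 and Apoe) had a sum of 40020 CPM in replicate 1 of 5xFAD and of 20510 CPM in replicate 3, while the Cd5l-transgenic replicates 1, 2 and 3 had sums of 25600, 24870 and 20420 CPM. Cd5l-transgenic replicate 2 had the most oligodendrocyte RNA (4043 CPM, against 328.2 to 1035 CPM elsewhere) and the most endothelial RNA (1113 CPM, against 548.0 to 627.2 CPM). Choroid plexus markers had a sum of 2756 CPM in 5xFAD replicate 3, against 244.6 to 522.7 CPM elsewhere, and 6 of 6 lay below 0 (median log2 fold change -1.61).

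None of the 6 genes passed the edgeR quasi-likelihood test between the genotypes (adjusted p of 0.995 to 0.999, threshold 0.05). The share of all tested genes called by that test was 0% (0 of 17724), so the absence of a call is not particular to Fc receptors. The test did not call Cd5l either (edgeR adjusted p = 0.448), although its log2 fold change was 8.23 (SE 0.60), whereas DESeq2 did (adjusted p = 6.74e-19). At an unadjusted p under 0.05 edgeR listed 2 of the 6 genes, Fcgrt and Fcgr4, against 2.63% of all tested genes. DESeq2 and limma-voom called 0 of the 6, where DESeq2 called 0.0587% of the genes it gave an adjusted p. Fcgrt and Fcgr4 were also the 2 genes whose Cd5l-transgenic libraries all lay above both 5xFAD libraries, an arrangement found in 7.2% of all tested genes; with DESeq2 size factors Fcgr3 joined them by a margin of 0.495%, and with library totals alone Fcgr1 by 0.201%. Of the 6 log2 fold changes 5 were above 0, with a median of 0.10, against 42.7% above 0 and a median of -0.027 over all tested genes. Because the RNA came from many cells together, a larger share of cells expressing a gene and more RNA per cell cannot be told apart. The labels do not say how the mice were related. The edgeR p-values set each difference against the spread between libraries of the same group, for these 5 libraries only.

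**Figure D1:**
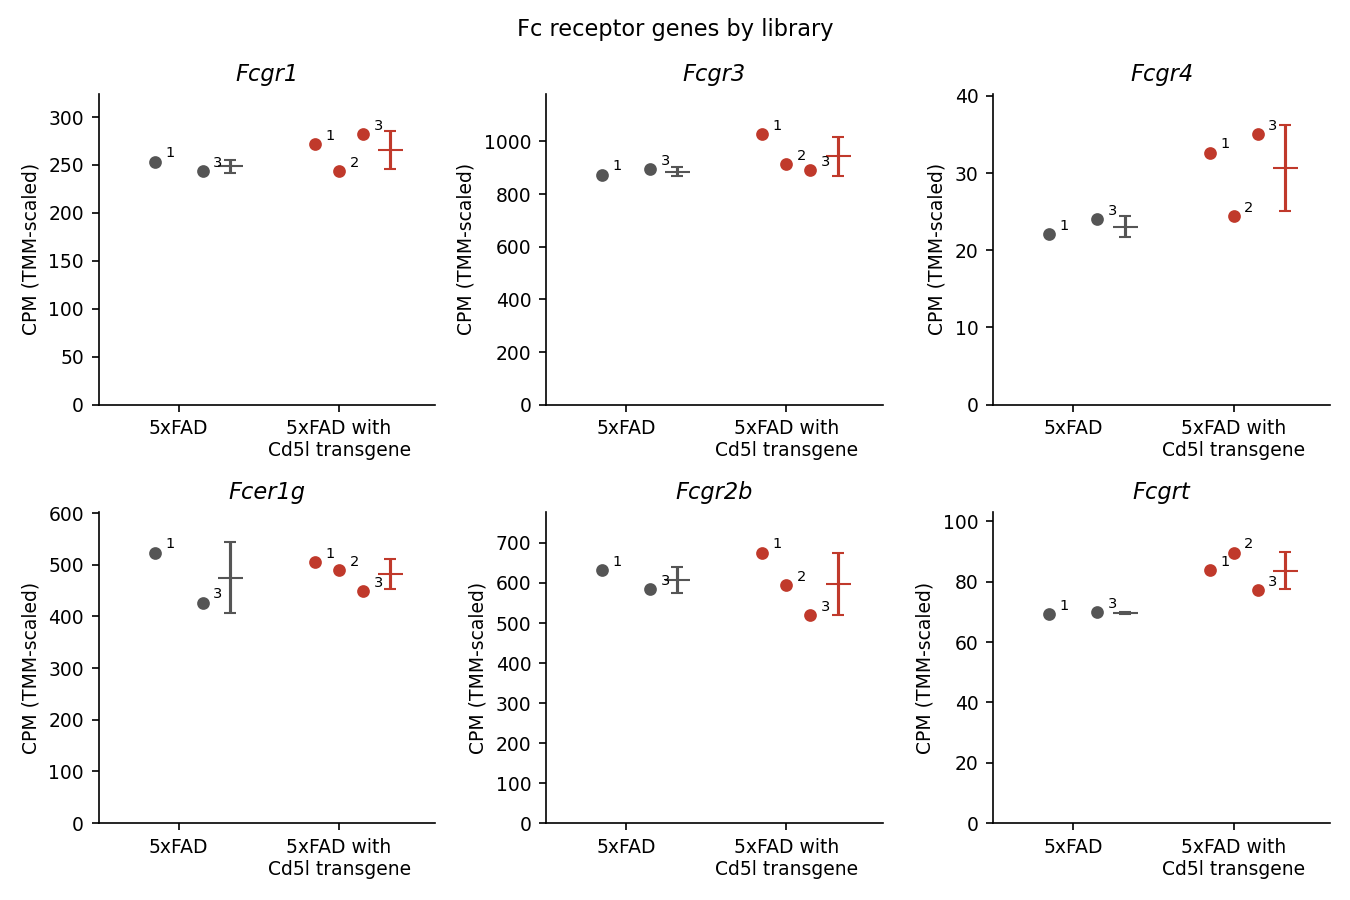
Level of each Fc receptor gene in CPM (vertical axis, from 0) in the 2 5xFAD and 3 Cd5l-transgenic libraries; each point is 1 library with its replicate number, and the bar beside the points gives the mean with its SD. The groups are apart for Fcgr4 (22.09 and 23.98 against 24.40 to 35.04 CPM) and Fcgrt (69.36 and 69.84 against 77.34 to 89.66 CPM) and overlap for the other 4 genes.

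Levels of different genes can be compared only per length, and the CPM was divided for this by the length the authors' table gives for each gene. On that scale Fcer1g and Fcgr3 were the most abundant, with means over the 5 libraries of 548.0 and 530.3 CPM per kilobase, ranks 59 and 62 of the 17724 tested genes. Their order was not stable, since Fcer1g was above Fcgr3 in 3 of 5 libraries. Fcgr2b (mean 103.9 CPM per kilobase) and Fcgr1 (93.97 to 109.0 CPM per kilobase in single libraries) followed, 5.10-fold below Fcgr3 in the case of Fcgr2b, and their ranges overlapped too, with Fcgr2b above Fcgr1 in 4 of 5 libraries. Fcgrt had 37.11 and Fcgr4 22.00 CPM per kilobase, and each of these last steps held in 5 of 5 libraries. The nearest values at the last step were 33.00 CPM per kilobase for Fcgrt and 27.90 for Fcgr4. Among the 4 IgG receptors, Fcgr3 made up 69.2% to 70.9% of the summed level per kilobase in the 5 libraries and Fcgr4 2.42% to 3.77%. The place of Fcgr2b depends on the length used. The table gives it 5790 bases, more than its transcript with the longest coding sequence in GENCODE M21 (3544 bases). Per kilobase of that transcript Fcgr2b had 170 CPM, ahead of Fcgr1 in every library (147 to 191 against 94 to 109).

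**Figure D2:**
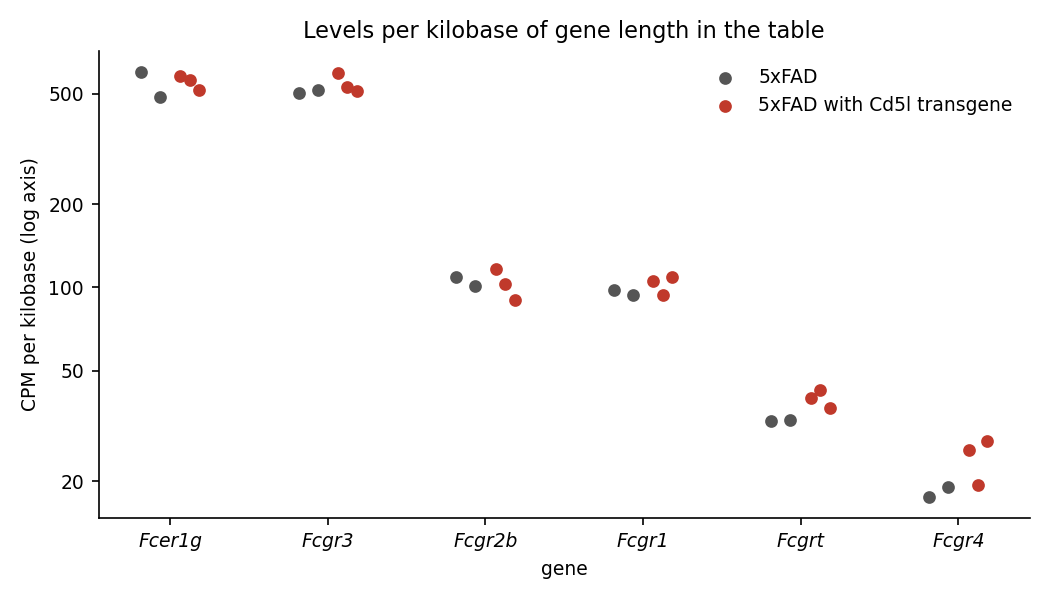
Level of each Fc receptor gene in CPM per kilobase of the gene length in the authors' table (logarithmic vertical axis), with 1 point per library, grey for 5xFAD and red for Cd5l-transgenic. Fcer1g and Fcgr3 lie between 488.2 and 599.0, Fcgr2b and Fcgr1 between 89.94 and 116.7, and Fcgrt and Fcgr4 at or below 42.66.

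Fcgr4 encodes an activating receptor that binds some IgG subclasses with intermediate affinity and needs the gamma chain. Its gene lies on chromosome 1, 170846489 to 170857330, plus strand (ENSMUSG00000059089, GRCm39). Fcgr4 measured 22.09 CPM in replicate 1 and 23.98 CPM in replicate 3 of the mice with 5xFAD alone. In the Cd5l-transgenic mice it measured 32.64, 24.40 and 35.04 CPM in replicates 1, 2 and 3. Replicates 1 and 3 with the transgene were clearly higher, whereas replicate 2 was next to the 5xFAD libraries. The 95% Poisson interval of Cd5l-transgenic replicate 2 (22.7 to 26.2 CPM, counting error only) overlapped that of 5xFAD replicate 3 (22.4 to 25.7 CPM), so the gap of 1.73% between the groups was not detectable at this depth. The means were 23.04 ± 1.34 CPM (SD, n = 2) and 30.69 ± 5.58 CPM (SD, n = 3), a difference of 33.2%. The log2 fold change of Fcgr4 was 0.41 (SE 0.17), with a 95% interval from 0.0012 to 0.82 (edgeR unadjusted p = 0.0495, adjusted p = 0.995). Without Cd5l-transgenic replicate 2 the log2 fold change was 0.57, and without replicate 3 it was 0.33. Over the 5 libraries the spread of Fcgr4 was wider than that of 89.8% of the 4588 tested genes within 2-fold of its mean level.

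Other myeloid cells than microglia can carry Fcgr4, and markers of some of them moved with it in part. Monocyte markers lay above 0 in 7 of 7 cases, against 42.7% of all tested genes. Their sums were 23.28 and 27.23 CPM in the mice with 5xFAD alone and 47.51, 32.62 and 32.13 CPM with the transgene. Of these 7 markers 2 had an unadjusted p under 0.05 in edgeR (0 adjusted), against 2.63% of all tested genes. Markers of border-associated macrophages lay above 0 in 7 of 9 cases. Their sums were 805.2 and 929.4 CPM in the mice with 5xFAD alone and 1106, 819.6 and 1102 CPM with the transgene. The same 2 Cd5l-transgenic libraries were thus high as for Fcgr4. These sums were mostly Stab1, at 548.5 and 636.8 CPM against 760.8, 596.7 and 699.7 CPM, with overlapping groups. Neutrophil markers lay above 0 in 8 of 9 cases, with a median log2 fold change of 1.02. Of these 9 markers 3 had an unadjusted p under 0.05 in edgeR (0 adjusted), again beside 2.63% of all tested genes. The neutrophil sums of 1134 and 1119 CPM against 1015, 1150 and 1137 CPM were mostly Csf3r (813.9 to 1074 CPM), the 1 marker below 0. Of the others, S100a9, an abundant granulocyte protein, stood at 16.50 and 21.44 CPM against 58.41, 43.53 and 20.55 CPM. Ngp stood at 13.59 and 16.08 CPM against 40.82, 35.38 and 17.52 CPM, and Camp at 1.97 and 1.83 CPM against 6.63, 5.46 and 3.21 CPM. These 3 were highest in Cd5l-transgenic replicates 1 and 2, whereas Fcgr4 was highest in replicates 3 and 1. No marker of these 3 lists was at 0 in all libraries, and the part of these cells in the Fcgr4 values was not tested. Scaled to the microglial identity markers in place of the library total, the log2 fold change of Fcgr4 was 0.37 (edgeR adjusted p = 0.866) and its groups still did not overlap.

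The tested genes whose profile over the 5 libraries came nearest to that of Fcgr4, out of the 7249 that averaged 20 CPM or more, were Irgm1, Zbp1 and Gbp9. Likeness was measured as the root mean square difference of centred log2 CPM, which was 0.063, 0.076 and 0.084 for these genes, where a flat profile would have given 0.26. Irgm1, which encodes an immunity-related GTPase, stood at 58.25 and 62.36 CPM in the mice with 5xFAD alone and at 86.95, 58.15 and 94.22 CPM with the transgene. Zbp1, which encodes a sensor of nucleic acids, stood at 20.84 and 21.36 CPM in the mice with 5xFAD alone and at 29.83, 22.46 and 36.37 CPM with the transgene. In both, Cd5l-transgenic replicates 1 and 3 were high and replicate 2 was at the 5xFAD level. These 5 points share their libraries, and the likeness is a description.

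The promoters of the 6 genes were taken from RefSeq (GRCm38.p6, all 6 matched, 7 starts) and searched on both strands in the 250 bases before the start. The motifs were an interferon-stimulated response element core (GAAA, any 2 bases, GAAA), a gamma-activated site (TTCNNNGAA) and a core of the myeloid factor PU.1 (GAGGAAGT). They were found in 2.98%, 7.02% and 2.44% of all 32851 promoter windows of that length. Fcgr4 held the response element core at 73 to 64 bases and the PU.1 core, on the opposite strand, at 24 to 17 bases before the start, and Fcgr1 held the gamma-activated site at 109 to 101 bases. None of these letters was found in the windows of the other 4 genes. The windows of Fcgr4 and Fcgr1 are printed because their genes showed the same library order at the top, with Cd5l-transgenic replicates 3 and 1 highest, and the matched bases are in capitals. Fcgr4 is at chr1:171018676-171018925, plus strand, and Fcgr1 at chr3:96293970-96294219, minus strand, both GRCm38.p6. A match describes the letters and not a bound site, and none of the matches overlaps another.
Fcgr4: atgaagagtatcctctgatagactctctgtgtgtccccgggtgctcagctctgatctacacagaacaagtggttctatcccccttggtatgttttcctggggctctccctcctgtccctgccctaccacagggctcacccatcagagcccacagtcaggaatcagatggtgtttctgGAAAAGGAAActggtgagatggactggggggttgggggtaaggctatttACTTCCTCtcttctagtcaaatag
Fcgr1: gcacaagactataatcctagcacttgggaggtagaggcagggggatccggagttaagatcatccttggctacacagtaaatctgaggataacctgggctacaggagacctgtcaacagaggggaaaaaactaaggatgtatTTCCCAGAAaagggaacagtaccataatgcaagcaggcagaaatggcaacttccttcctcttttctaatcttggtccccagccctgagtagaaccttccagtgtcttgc

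Fcgr1 encodes the high-affinity IgG receptor, a common marker of macrophages and microglia (ENSMUSG00000015947, chromosome 3, 96190225 to 96201285, minus strand, GRCm39). It stood at 253.5 and 243.3 CPM in the mice with 5xFAD alone and at 272.0, 244.0 and 282.2 CPM with the transgene. Cd5l-transgenic replicates 1 and 3 were the highest 2 libraries, and replicate 2 was between the 5xFAD libraries. The means were 248.4 ± 7.24 CPM (SD, n = 2) and 266.0 ± 19.8 CPM (SD, n = 3), and the log2 fold change of 0.099 (SE 0.092) had a 95% interval from -0.12 to 0.32 (edgeR adjusted p = 0.995). The interval leaves room for a level 1.25 times that of 5xFAD, or 0.917 times. The nearest profile was that of F11r, a junctional adhesion molecule gene, with a root mean square difference of 0.015, followed by Trmt2b (0.018) and Zeb2 (0.020), against 0.086 for a flat profile.

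Fcgr3 encodes a low-affinity activating receptor and gave the most counts of the 6 genes (ENSMUSG00000059498, chromosome 1, 170878743 to 170892504, minus strand, GRCm39). It stood at 874.0 and 896.5 CPM in the mice with 5xFAD alone and at 1028, 914.2 and 889.9 CPM with the transgene. Only Cd5l-transgenic replicate 1 stood apart, and replicate 3 was within the 5xFAD range. The means were 885.3 ± 15.9 CPM (SD, n = 2) and 944.2 ± 74.0 CPM (SD, n = 3). The log2 fold change of Fcgr3 was 0.093 (SE 0.10), with a 95% interval from -0.15 to 0.34 (edgeR adjusted p = 0.995), and without Cd5l-transgenic replicate 1 it was 0.027. Fcgr3 was steadier than most genes, since 28.9% of the 232 tested genes within 2-fold of its level had a smaller spread. Markers of natural killer cells, which carry this receptor as well, summed to 4.36 to 6.75 CPM, and mast cell markers to 0.644 to 1.69 CPM. Its nearest profiles were those of Rtraf (0.017), Traf3ip3 (0.024) and Otud5 (0.025), against 0.084 for a flat profile.

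Fcer1g encodes the gamma chain that the activating receptors share and that also serves other receptors (ENSMUSG00000058715, chromosome 1, 171057141 to 171061934, minus strand, GRCm39). It stood at 523.6 and 426.7 CPM in 5xFAD, the highest and the lowest of all libraries, and at 504.9, 490.4 and 449.3 CPM with the transgene. The Cd5l-transgenic libraries thus all lay between the 5xFAD libraries. The means were 475.1 ± 68.5 CPM (SD, n = 2) and 481.5 ± 28.9 CPM (SD, n = 3), with a log2 fold change of 0.020 (SE 0.12) and a 95% interval from -0.27 to 0.31 (edgeR adjusted p = 0.999). The sign turned with single libraries: without 5xFAD replicate 1 Fcer1g was at 0.18, and without 5xFAD replicate 3 at -0.12. The library highest in Fcer1g, 5xFAD replicate 1, was also the highest in the plaque-associated genes, and whether these go together was not tested. Tyrobp, the other adaptor of this kind in microglia, stood at 1692 and 1165 CPM in the mice with 5xFAD alone and at 1349, 1374 and 1254 CPM with the transgene, again with the 5xFAD libraries at both ends. Among the nearest profiles to Fcer1g were those of Mvp (0.011) and Ncl (0.019), against 0.11 for a flat profile.

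Fcgr2b encodes the inhibitory IgG receptor (ENSMUSG00000026656, chromosome 1, 170786186 to 170804116, minus strand, GRCm39). It stood at 631.2 and 585.4 CPM in the mice with 5xFAD alone and at 675.9, 594.7 and 520.8 CPM with the transgene. The Cd5l-transgenic libraries held both the highest value, in replicate 1, and the lowest, in replicate 3. The means were 608.3 ± 32.3 CPM (SD, n = 2) and 597.1 ± 77.6 CPM (SD, n = 3), with a log2 fold change of -0.027 (SE 0.13) and a 95% interval from -0.34 to 0.29 (edgeR adjusted p = 0.999). Without Cd5l-transgenic replicate 3 it was 0.082, and without replicate 1 it was -0.12. Fcgr2b and Fcer1g had the most alike profiles among the 15 pairs of the 6 genes (root mean square difference 0.094), and Fcgr2b and Fcgr4 the least alike (0.32). Fcgr3 with Fcgr2b (0.096) and Fcgr1 with Fcgr3 (0.098) were close behind. A flat profile came to 0.11 from Fcer1g, so the likeness of the first pair is slight. The nearest profiles outside the family were those of Krtcap2 (0.012), Abca7 (0.030) and Tpcn1 (0.031), against 0.12 for a flat profile.

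Counts of Fcgr2b and Fcgr3 depend on how reads from shared sequence were assigned, a step not given in the sources used here. Their coding sequences in GENCODE M21 (GRCm38) were identical at 83.7% of 787 aligned bases, whereas the other 5 pairs of IgG receptor genes were identical at 58.7% to 63.3%. The longest identical run was 129 bases between Fcgr2b and Fcgr3, against 9 to 14 bases in the other pairs. Of all windows of 100 bases in the Fcgr3 transcript, 3.53% occurred without a mismatch in Fcgr2b, and of windows of 50 bases 12.8%. For Fcgr1, Fcgr4, Fcer1g and Fcgrt 0% of windows of either length occurred in the transcripts of another gene. Windows of Fcgr2b also occurred in genes outside the family (6.79% of windows of 100 bases in all, of which 1.28% in Fcgr3). The stretch around the longest run, 189 bases over 2 exons of each gene, is printed with the 5 differing bases in capitals. For Fcgr2b it covers coding bases 248 to 436 (chr1:170966644-170968111, minus strand), and for Fcgr3 coding bases 233 to 421 (chr1:171054137-171057822, minus strand).
Fcgr2b: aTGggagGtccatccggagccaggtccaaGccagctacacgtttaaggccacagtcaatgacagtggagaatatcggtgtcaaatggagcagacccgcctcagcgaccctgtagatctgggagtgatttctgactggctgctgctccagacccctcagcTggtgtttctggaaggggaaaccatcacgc
Fcgr3: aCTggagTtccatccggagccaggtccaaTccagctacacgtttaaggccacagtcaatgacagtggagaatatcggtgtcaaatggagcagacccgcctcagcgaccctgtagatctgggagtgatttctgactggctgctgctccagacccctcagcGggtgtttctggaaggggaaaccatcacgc

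The balance of activating to inhibitory receptors was compared as the summed level per kilobase of Fcgr1, Fcgr3 and Fcgr4 over that of Fcgr2b. It was 5.68 and 6.23 in 5xFAD replicates 1 and 3, and 6.20, 6.23 and 7.22 in Cd5l-transgenic replicates 1, 2 and 3. Replicates 1 and 2 with the transgene were level with 5xFAD replicate 3, and replicate 3 was above, where its Fcgr2b level was the lowest of all. The means were 5.95 ± 0.387 (SD, n = 2) and 6.55 ± 0.581 (SD, n = 3). The mean log2 ratio was 0.14 higher with the transgene (exact two-sided permutation test over 10 assignments, p = 0.5), in a design whose smallest possible p is 0.1. Taken alone, Fcgr1 over Fcgr2b differed by 0.13 (exact permutation p = 0.8), Fcgr3 over Fcgr2b by 0.12 (exact permutation p = 0.4) and Fcgr4 over Fcgr2b by 0.43 (exact permutation p = 0.2). Adjusted over these 4 ratios, the permutation p-values were 0.667 to 0.8. For Fcgr4 over Fcgr2b the ratios were 0.161 and 0.189 in 5xFAD and 0.223, 0.189 and 0.310 with the transgene. Without Cd5l-transgenic replicate 3 the log2 difference of the summed ratio was 0.064, and without 5xFAD replicate 1 it was 0.070.

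**Figure D3:**
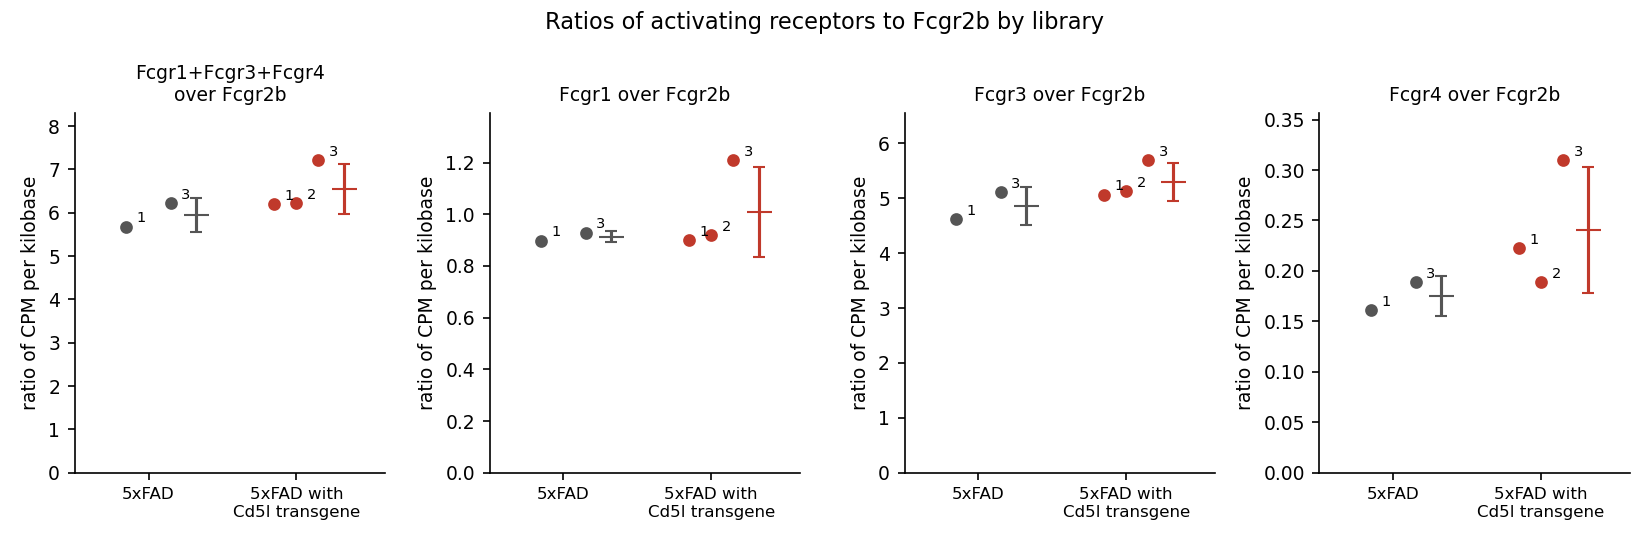
Ratios of CPM per kilobase (vertical axes, from 0) of the 3 activating receptors together and of each alone over the inhibitory Fcgr2b, with 1 point per library and its replicate number, and the mean with its SD beside the points. The summed ratio lies between 5.68 and 6.23 in 4 libraries and at 7.22 in Cd5l-transgenic replicate 3.

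Fcgrt, the neonatal Fc receptor, showed the clearest separation of the 6 genes (ENSMUSG00000003420, chromosome 7, 44742414 to 44753275, minus strand, GRCm39). It stood at 69.36 and 69.84 CPM in the mice with 5xFAD alone and at 83.81, 89.66 and 77.34 CPM with the transgene. All 3 Cd5l-transgenic libraries were higher than both 5xFAD libraries, by at least 10.7%. The 95% Poisson intervals of the nearest libraries did not overlap, with 74.4 to 80.4 CPM for Cd5l-transgenic replicate 3 and 67.1 to 72.6 CPM for 5xFAD replicate 3. The means were 69.60 ± 0.336 CPM (SD, n = 2) and 83.60 ± 6.17 CPM (SD, n = 3), a difference of 20.1%. The 2 5xFAD values lay closer together than the counting error (2.21% in the lowest library), so their SD may understate the spread between mice. For Fcgrt the fitted log2 difference was 0.26 (SE 0.086), with a 95% interval from 0.053 to 0.48 (edgeR unadjusted p = 0.0223, adjusted p = 0.995). With single libraries left out the value stayed between 0.22 and 0.34, and it did not pass in any of the alternatives. Its groups also stayed apart with library totals (by 9.31%), upper-quartile factors (10.5%) and DESeq2 size factors (12.1%). On the microglial scale the gap was smaller, at 4.6%. Its nearest profiles were those of Adipor2, Kif13a and Rhobtb2, with root mean square differences of 0.038, 0.038 and 0.042, against 0.14 for a flat profile.

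Endothelial markers moved with Fcgrt in part. Of the 7 markers 7 lay above 0 and 5 had all Cd5l-transgenic libraries above both 5xFAD libraries (7.2% of all tested genes), none was at 0 in all libraries, and their sums were 586.1 and 548.0 CPM in the mice with 5xFAD alone and 626.9, 1113 and 627.2 CPM with the transgene. Flt1, the largest part of these sums, stood at 357.9 and 253.6 CPM against 326.2, 488 and 272.5 CPM, with overlapping groups. Cd5l-transgenic replicate 2 was the highest in Fcgrt and in the endothelial sums, and the part of endothelial RNA in the Fcgrt values was not tested. Without that library the log2 fold change of Fcgrt was 0.22. Erythroid markers were also highest in that library, at a low level, with 5 of 5 above 0 and apart in that direction (again beside 7.2% of all tested genes) and sums of 2.41 and 1.47 CPM against 7.40, 20.76 and 8.53 CPM. Oligodendrocyte markers lay above 0 in 6 of 6 cases, with 3 of 6 apart in that direction and sums of 359.5 and 328.2 CPM against 1035, 4043 and 357.4 CPM. Astrocyte markers lay above 0 in 4 of 5 cases, with sums of 285.9 and 286.9 CPM against 332.8, 384.5 and 289.8 CPM. In these sums Cd5l-transgenic replicate 3 was next to the 5xFAD libraries. Gfap, their largest part, stood at 155.4 and 116.3 CPM against 167.6, 140.3 and 141.9 CPM, with overlapping groups. The marker below 0 was Aqp4, with a log2 fold change of -1.06 (SE 0.61). None of these markers was at 0 in all libraries, and the part of these cells was not tested either. B2m, which encodes the partner chain of the neonatal receptor and of MHC class I, lay on the other side: it stood at 2912 and 3013 CPM in the mice with 5xFAD alone and at 2733, 2753 and 2862 CPM with the transgene. Its log2 fold change was -0.090 (SE 0.098, edgeR adjusted p = 0.995), and the groups did not overlap, as in 8.69% of all tested genes in that direction.

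**Figure D4:**
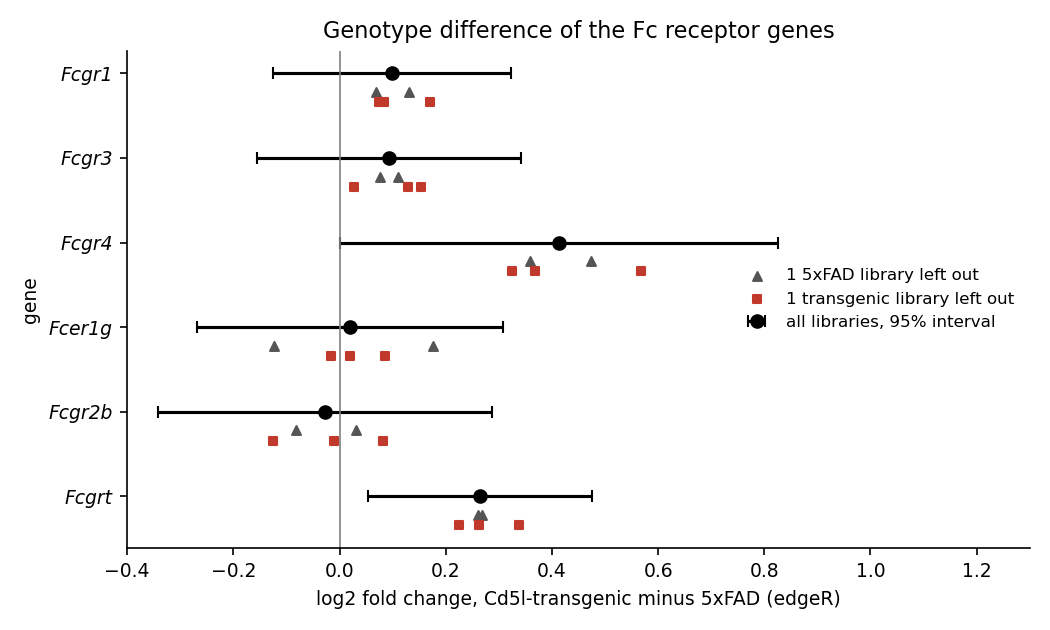
Log2 fold change of each Fc receptor gene, Cd5l-transgenic minus 5xFAD (horizontal axis, edgeR), as a black point with its 95% interval; triangles and squares are the values with 1 5xFAD or 1 Cd5l-transgenic library left out. Fcgrt (0.26) and Fcgr4 (0.41) stay above 0 in each of these fits, which follows from their groups lying apart. Fcer1g and Fcgr2b change sign.

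Genes that act downstream of Fc receptors or beside them were taken from 7 lists. No member of any list passed in edgeR or DESeq2, against backgrounds of 0% of the genes tested and 0.0587% of the 17036 genes with a DESeq2 adjusted p. The kinases that start the signal were all tested and lay close to 0 (9 of 9 tested, 6 above 0, median 0.021). Lyn, which phosphorylates the receptor motifs, stood at 416.3 and 441.5 CPM in the mice with 5xFAD alone and at 446.5, 414.2 and 501.6 CPM with the transgene, and Syk at 194.0 and 209.4 CPM against 226.5, 191.2 and 225.7 CPM. By smallest unadjusted p the list was led by Tec, with a log2 fold change of -0.21 (SE 0.12), Btk with -0.12 (SE 0.13) and Fgr with -0.19 (SE 0.22), all with overlapping groups. None of the 9 had an unadjusted p under 0.05.

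Adaptors and effectors had a median of -0.020, with 9 of 26 above 0 (42.7% of all tested genes). At an unadjusted p under 0.05 edgeR listed 1 of these 26 genes, beside 2.63% of all tested genes. That gene was Vav3, a guanine nucleotide exchange factor, at a low level of 0.745 and 1.27 CPM in the mice with 5xFAD alone and 2.46, 2.04 and 2.66 CPM with the transgene. Its log2 fold change was 1.21 (SE 0.35, edgeR adjusted p = 0.995). Plcg1, a phospholipase, stood at 108.6 and 118.2 CPM against 121.1, 124.6 and 121.5 CPM (0.11 on the log2 scale, SE 0.074). Its spread was wider in 5xFAD (SD 6.79 CPM) than with the transgene (SD 1.9 CPM). Blnk, an adaptor, had -0.14 (SE 0.11). Cytoskeletal genes of the phagocytic cup had a median of -0.020 as well, with 11 of 28 above 0 and 0 at an unadjusted p under 0.05. Among them Pak1, a kinase downstream of RAC, was at 0.20 (SE 0.11) on the log2 scale and Myo1e, an unconventional myosin, -0.18 (SE 0.17). Amph, amphiphysin, had 3.08 (SE 1.78), and this value came from 1 library, Cd5l-transgenic replicate 2, at 4.80 CPM against 0.203 to 0.453 CPM elsewhere.

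Inhibitory signalling genes had a median of -0.051, with 5 of 16 above 0 and 0 at an unadjusted p under 0.05. Without 5xFAD replicate 1 the median was 0.017, and that of the cytoskeletal genes 0.065. Cd22, an inhibitory lectin of B cells that microglia also express, stood at 104.4 and 68.45 CPM in the mice with 5xFAD alone and at 60.57, 59.68 and 77.28 CPM with the transgene, a difference of -0.39 on the log2 scale (SE 0.21). Dok3, an adaptor that dampens kinase signals, had -0.14 (SE 0.11), and Ptpn11, a phosphatase, 0.16 (SE 0.14). Of the 9 genes of gamma-chain partners and the related adaptor Tyrobp 6 were tested, with a median of 0.22, which was 0.061 without Cd5l-transgenic replicate 1 and 0.47 without 5xFAD replicate 1. Ncr1 (0.60, SE 0.47), Clec4e (0.58, SE 0.51) and Clec4d (0.28, SE 0.42), a natural killer cell receptor and receptors for microbial and cell-damage lipids, led by p at levels of 0.339 to 2.36 CPM. Gp6, the platelet collagen receptor, had 0 counts in all libraries.

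Of 14 other immunoglobulin receptors and related genes 5 were tested, with a median of -0.090 and 0 at an unadjusted p under 0.05. Fcrls, a Fc receptor-like gene typical of microglia, stood at 2681 and 2024 CPM in the mice with 5xFAD alone and at 2120, 2125 and 2235 CPM with the transgene. Fcrl1, a receptor best known from B cells, was at -0.19 (SE 0.16) on the log2 scale, and Fcrlb, at 0.440 to 1.55 CPM, one of 0.86 (SE 0.47). Fcamr and Pigr, which bind polymeric immunoglobulins, had 0 counts in all libraries. Trim21, the cytosolic antibody receptor, was at 22.09 and 25.51 CPM in the mice with 5xFAD alone and at 24.50, 21.98 and 26.99 CPM with the transgene.

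Immunoglobulin transcripts were scarce apart from Ighm, which belongs to IgM and not to IgG, the ligand of the receptors followed here. Of 12 immunoglobulin genes 8 were tested, with 1 above 0 and a median of -0.56. The median was 0.15 without 5xFAD replicate 1 and -1.78 without 5xFAD replicate 3. Ighm, the heavy chain of IgM, lay between 325.4 and 380.4 CPM, with overlapping groups. Ighd, the heavy chain of IgD, was present in every library at 7.245 to 11.67 CPM, also with overlapping groups. The IgG heavy chain gene Ighg2b was at 0.198 to 1.86 CPM, Ighg2c was at 0 to 1.51 CPM and Ighg1 had 0 counts. Igkc, the kappa light chain, stood at 21.11 and 2.94 CPM in the mice with 5xFAD alone and at 0.743, 2.38 and 6.45 CPM with the transgene, and Iglc1, a lambda chain, at 6.03 and 0.0282 CPM against 0.0323, 0.345 and 0.908 CPM, with log2 fold changes of -1.87 and -2.70 and 5xFAD replicate 1 far above the rest in both. Igha, the heavy chain of IgA, had 2.37 (SE 1.18), with 7.38 CPM in Cd5l-transgenic replicate 3 and 0.474 to 1.51 CPM elsewhere. B cell markers were near 0 in all libraries, with sums of 6.34 to 10.05 CPM.

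**Figure D5:**
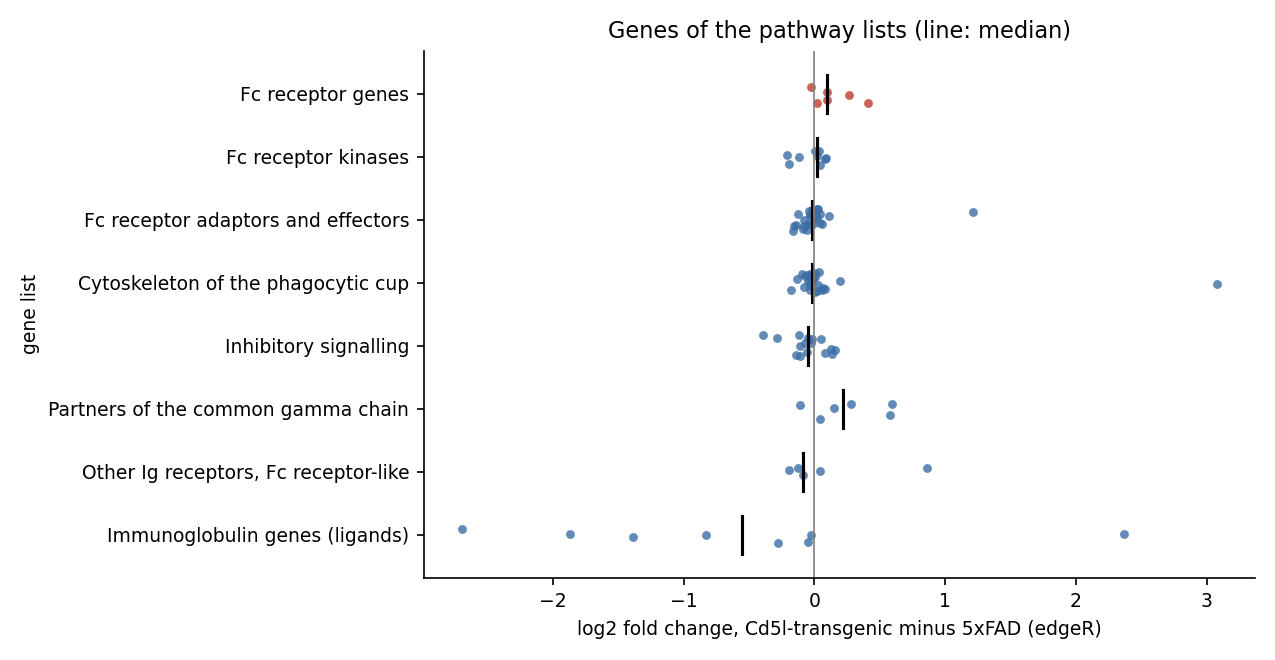
Log2 fold change, Cd5l-transgenic minus 5xFAD (horizontal axis, edgeR), of each tested gene of the 6 Fc receptor genes (red) and of the 7 related lists (blue), with a black line at each list's median; vertical scatter within a list has no meaning. The kinases, adaptors, cytoskeletal and inhibitory genes lie mostly around 0, and Amph (3.08), Vav3 (1.21) and the immunoglobulin genes (-2.70 to 2.37) lie farthest out.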

How the data were processed

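RNA of CD11b-positive brain cells was sequenced with 1 library per mouse, and groups were taken from the titles. The counts per Ensembl gene were used as deposited by the authors, and the gene length in bases as their table lists it. The build was GRCm39, per the submitters' processing notes. No source used here names the aligner, counter, annotation release or strand setting. The titles name CD11b-positive cells, whereas the descriptions speak of brain tissue. A column whose letter pairs stood in the opposite order (Cd5l-transgenic replicate 3) was matched by its letters and number.

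Counts of 17724 genes kept by filterByExpr were scaled by TMM and tested with the edgeR 4.0.16 quasi-likelihood test (R 4.3.3, robust), with Benjamini-Hochberg adjustment over all of them, and the scripts were tested on simulated data. Standard errors and 95% intervals were derived from the F statistic. Alternatives were other scalings and filters, DESeq2 1.42.0, limma-voom (limma 3.58.1), the older quasi-likelihood method, a replicate block and leaving out each library.

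The members and lists were chosen with earlier results of these data known. All 6 Fc receptor genes are named, 3 genes per list by smallest unadjusted p, 3 by likeness of profile, and 2 neighbours on either side, of which a few are not reported here. Others (Lyn, Syk, Tyrobp, Fcrls, Trim21, Csf3r, S100a9, Ngp, Camp, Itgam, genes at 0 and immunoglobulin genes beyond the first 3) were chosen after their values were seen. The same holds for Stab1, Flt1, Gfap and Aqp4. Genes that overlap Fcgr3, Fcgr4, Fcgr2b and Fcgrt had at most 6 counts.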

Additional observations from a re-analysis of the deposited data

How the results depend on the processing

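None of the 6 Fc receptor genes passed under any of 14 alternatives (lowest adjusted p = 0.826). Over all genes DESeq2 called 8 higher and 2 lower, limma-voom 0, and leaving out single libraries gave 0 higher and 0 to 10 lower, the 10 without 5xFAD replicate 1. Fcgr1, Fcgr3, Fcgr4 and Fcgrt kept a positive sign throughout. For Fcgr4 and Fcgrt with single libraries left out, that follows from their groups lying apart. Fcer1g turned to -0.016 scaled to the microglial identity list, to -0.12 without 5xFAD replicate 3 and to -0.016 without Cd5l-transgenic replicate 1 (range -0.12 to 0.18 with single libraries left out). Fcgr2b turned to 0.067 in limma-voom, to 0.0062 with the filter of 5 CPM in 2 samples, to 0.030 without 5xFAD replicate 1 and to 0.082 without Cd5l-transgenic replicate 3 (range -0.12 to 0.082). The cause was not tested. With single libraries left out, list medians changed sign for kinases (-0.033 to 0.056), adaptors (-0.055 to 0.035), cytoskeletal genes (-0.077 to 0.065), inhibitory genes (-0.092 to 0.017) and immunoglobulin genes (-1.78 to 0.15), and ran from 0.061 to 0.47 for gamma-chain partners and from -0.077 to -0.049 for other immunoglobulin receptors. The summed ratio had log2 differences of 0.064 to 0.20 with single libraries left out. With the length of the transcript that has the longest coding sequence the difference was 0.13. That length was chosen after seeing the data.

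With the replicate number as a block, edgeR called 0 genes, and log2 fold changes were 0.55 for Fcgr4 and 0.21 for Fcgrt. The block difference of the summed ratio was 0.17. Numbers 1 and 3 are shared by the genotypes. Deviations from the group means correlated across genes at 0.13 for number 1 and at -0.24 for number 3. The deviations of the 2 5xFAD libraries mirror each other, so these values cannot decide whether the numbers pair the mice. The labels do not say. Where 1 5xFAD library was left out, the other was assumed to vary like the Cd5l-transgenic ones. Depth limits Fcgr4 most, with a counting error of 3.92% in its lowest library, against 0.623% for Fcgr3.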

Other observations

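The genome neighbours of the 6 genes give no common direction. Fcgr2b, Fcgr4 and Fcgr3 lie next to each other among the tested genes of chromosome 1 (170786186 to 170892504, GRCm39), with log2 fold changes of -0.027, 0.41 and 0.093. On either side of them, Fcrlb stood at 0.86 (SE 0.47), Gm2962 at -0.024 (SE 0.62), Cfap126, a cilia gene, at -0.88 (SE 0.47) and Sdhc, a subunit of succinate dehydrogenase, at -0.058 (SE 0.084). Beside Fcer1g, Tomm40l stood at 0.058 (SE 0.11), Nr1i3 at 0.47 (SE 0.63) and Adamts4, a protease found in oligodendrocytes, at 2.61 (SE 1.31). Beside Fcgrt, Rcn3, a calcium-binding protein of the endoplasmic reticulum, stood at 0.98 (SE 0.37; edgeR unadjusted p = 0.0371), Nosip at 0.014 (SE 0.084) and Gm45552 at 0.11 (SE 0.18). Beside Fcgr1, the histone genes H3c13 and H4c14 stood at 1.54 (SE 0.60) and 0.17 (SE 0.42), BC107364 at 1.11 (SE 0.55) and Gm15441 at -0.089 (SE 0.20), all under 10 CPM in the mean. None of these neighbours passed in edgeR (adjusted p of 0.995 to 0.999).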
